A study of Mus musculus with 10 samples.

Results

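The 30 genes described here are established transcriptional targets of the tumour suppressor p53, taken from a list of names, with no measured value in the rule. The list was chosen with earlier results of these data known. All 30 were found among the 19232 protein-coding genes of the mouse chromosomes analysed, in the RefSeq annotation of GRCm38.p6. They were followed through peak lists of chromatin immunoprecipitation with an antibody to the HA tag in KH2 mouse embryonic stem cells, where the tagged protein was SETα or SETβ. All 4 groups carried a doxycycline-inducible HA-tagged transgene, received doxycycline at 1 µg/ml for 24 h and were crosslinked with DSG (2 mM) and then formaldehyde (1%). In the SETα addback and SETβ addback groups the endogenous Set gene was knocked out, so that the tagged isoform was the SET protein supplied. In the SETα overexpression and SETβ overexpression groups the cells were SET wild type. Each group was a separate transgenic line with 2 libraries, so effects of a line and of its group cannot be told apart. The labels do not say whether the 2 libraries came from separate cultures. The 2 knockout samples of the series without doxycycline are not analysed here. Background in cells lacking the tagged protein is therefore not shown.

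In unstressed cells p53 is held at a low level by the ubiquitin ligase MDM2 and its partner MDM4. After DNA damage or other stress p53 accumulates, binds pairs of short half-sites near its target genes and raises transcription of inhibitors of the cell cycle, mediators of apoptosis, DNA repair factors and antioxidant enzymes. SET is a histone chaperone and an inhibitor of histone acetylation that is known to bind the unacetylated C-terminal tail of p53 and to restrain transcription of p53 targets. SETα and SETβ differ in their N-terminal sequence. Embryonic stem cells express p53 and many of these targets without added damage. The peak lists show where tagged SET was called on chromatin, and hold no measure of p53 binding or of transcription.

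A gene-end peak is a called peak that overlapped, by at least 1 bp, a window reaching 1 kb to each side of a gene's start or end, and a gene-body peak is one inside the gene that touched neither window. The lists held between 1343 and 22176 peaks, with 22176 and 15701 for SETα and 2518 and 9768 for SETβ in the addback lines, and 4807 and 7675 for SETα and 1343 and 2869 for SETβ in the overexpression lines. Read totals are not given in the sources used here, so the depth behind each list is unknown. A distal segment of chromosome 6 that contains Tigar held 69.4% and 62.2% of the SETα overexpression peaks and between 1.99% and 4.36% of those of the other libraries. Fold values, p and q of peaks are the authors', and a rank is the peak's place in its own list, with the strongest as 1. Ranks from lists of different length are given side by side and show no change between libraries.

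Most of the p53 targets had a tagged SETα peak at a gene end in the addback lines, and few had one for SETβ or in cells that kept endogenous SET. In SETα addback 1, 18 of 30 targets had a gene-end peak, where 34.3% of all protein-coding genes had one. In SETα addback 2 the count was 17 of 30, against 31.8% of all genes. In SETβ addback 1 it was 1 of 30, against 8.4%, and in SETβ addback 2 it was 7 of 30, against 18.4%. The share of targets was therefore above the background in both SETα addback lists, near it in SETβ addback 2 and below it in SETβ addback 1.

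In overexpressing cells few targets had a gene-end peak, and few of all genes did. SETα overexpression 1 and 2 had 1 of 30 each, against 0.983% and 1.9% of all genes, and the gene was Tigar in both. SETβ overexpression 1 had 0 of 30, against 0.338%. SETβ overexpression 2 had 4 of 30, or 13.3%, against 1.85%, at Btg2, Tigar, Bax and Rps27l. The target share was thus above the background in SETβ overexpression 2, on 4 genes. In the SETα overexpression libraries 1 gene is too few to set against a share. That gene, Tigar, lies in the chromosome 6 segment that held most peaks of those libraries. The 4 overexpression libraries lay between 0 and 4 and the SETα addback libraries at 17 and 18, without overlap, while SETβ addback 1 with 1 target lay inside the overexpression range.

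**Figure D1:**
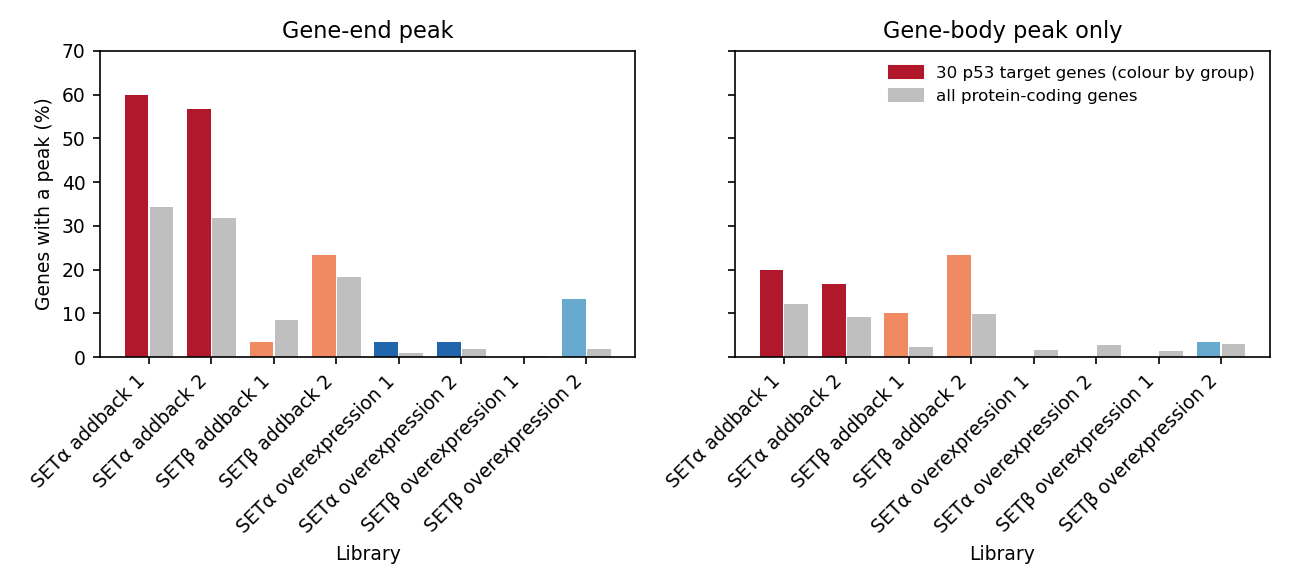
Share of the 30 p53 target genes and of all 19232 protein-coding genes with a gene-end peak (percent, vertical axis) in each of the 8 libraries. The targets lie above the background in both SETα addback libraries, with 18 and 17 genes, and in SETβ overexpression 2, with 4 genes against 1.85% of all genes, and below it in SETβ addback 1, with 1 gene.

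The addback means were 17.5 ± 0.707 targets for SETα and 4.0 ± 4.24 for SETβ (SD, n = 2 each). The overexpression means were 1.0 ± 0.0 for SETα and 2.0 ± 2.83 for SETβ (SD, n = 2 each). The SETα addback mean was 13.5 targets higher than the SETβ addback mean, where the pooled SD between replicates was 3.04. The addback libraries together were 9.25 targets above the overexpression libraries, with a pooled SD of 2.57. Both differences are larger than the spread between replicates of a group. The addback libraries themselves ranged from 1 to 18 targets, and the second difference was carried by SETα, since the SETβ means of 4.0 and 2.0 differed by less than their SDs. Counted over the 1343 strongest peaks of each list, the number in the shortest one, the differences were 1.0 and 0.0 targets. The part of list length and depth in these differences was not tested.

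Over those equal numbers of peaks, SETα addback 1 had 2 targets, Sesn1 and Tigar, against 4.65% of all genes. SETα addback 2 had 1, Polk, against 5.76%. SETβ addback 1 had 0, against 5.38%, and SETβ addback 2 had 1, Mdm2, against 4.96%. The target shares were thus near or below the background among the 1343 strongest peaks, and the excess of targets in SETα addback lay outside them. The overexpression lists held Tigar in both SETα libraries (0.536% and 0.645% of all genes), no target in SETβ overexpression 1 (0.338%), and Bax and Rps27l in SETβ overexpression 2 (0.681%).

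Thresholds on q, the p-value the authors' caller corrected for many peaks, left fewer targets. At a −log10 q of at least 1.3, 14 of 30 targets kept a gene-end peak in each SETα addback list, against 22.0% and 24.2% of all genes. SETβ addback 1 had 0 (4.85%) and SETβ addback 2 had 1, Mdm2 (7.39%). At a −log10 q of at least 5 no target had a gene-end peak in SETα addback 1 (3.88%), SETα addback 2 (4.52%), SETβ addback 1 (2.69%) or SETβ addback 2 (2.62%). The targets with any peak of that strength in any of the 8 libraries were Mdm4 and Rps27l, 2 of 30, where 7.17% of all genes had one, and both had it inside the gene.

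Among genes that had a gene-end peak, the peaks of the targets were of ordinary height. The median fold of the best one was 3.5 for targets and 3.24 for all genes in SETα addback 1, 3.9 and 3.9 in SETα addback 2, and 3.15 and 3.15 in SETβ addback 2. Median ranks were 20.4% and 33.6% of the list in SETα addback 1, 32.2% and 31.9% in SETα addback 2, and 35.5% and 34.8% in SETβ addback 2. The single target in SETβ addback 1, Mdm2, ranked at 89.7% of its list, where the median of all genes was 39.7%.

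**Figure D2:**
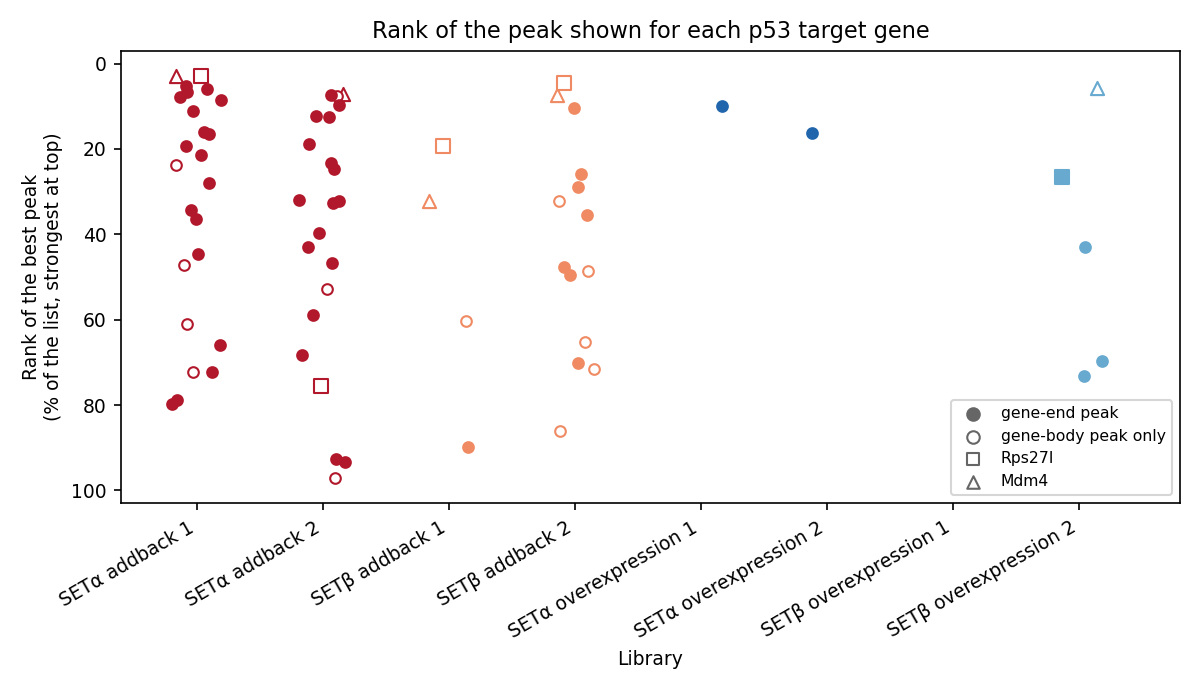
Rank of the best gene-end peak at each p53 target gene, or of the best gene-body peak where it had none, in the 8 libraries. Ranks are a percent of the peak's own list, with the strongest at the top of the vertical axis. Filled points are gene-end peaks and open points gene-body peaks for genes without a gene-end peak, squares are Rps27l and triangles Mdm4, and in SETα addback 1 these 2 genes hold the top places.

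Of the 30 targets, 26 had a gene-end peak in at least 1 of 8 libraries, where 48.3% of all genes did. In SETα addback 23 had one in at least 1 library (44.1% of all genes), and in SETβ addback 7 did (20.9%). In SETα addback, 12 of 30 targets had a gene-end peak in both libraries, where 22.0% of all genes did: Ercc5, Phlda3, Sesn1, Polk, Pmaip1, Ddb2, Sesn2, Gadd45a, Tigar, Bbc3, Bax and Aen. In SETβ addback it was 1 of 30, Mdm2, against 5.84%. In overexpressing cells it was 1 of 30 for SETα, Tigar, against 0.879%, and 0 of 30 for SETβ, against 0.187%. No target had a gene-end peak in all 4 addback libraries, where 5.14% of all genes did. Of the 30, 8 had one in both SETα addback and no SETβ addback library, against 10.1% of all genes, and 1, Mdm2, in a SETβ addback and no SETα addback library, against 3.35%. Among the 8, Ercc5, Polk and Tigar did have a gene-body peak in SETβ addback 2. At Ercc5 1 such peak overlapped gene-end peaks of both SETα addback libraries, so these genes were not free of SETβ peaks.

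A peak in both libraries did not always lie at the same place. In SETα addback 27 targets had a peak of any kind in at least 1 library (55.6% of all genes), 19 in both (31.8%), and 12 had peaks that overlapped each other (20.9%). In SETβ addback the numbers were 14 (31.0%), 4 (7.99%) and 3 (6.02%). The SETα addback counts lay above the shares of all genes at each step, and the SETβ addback count did at the first. The SETβ addback counts of 4 and 3 targets are too few to set against a share. CpG content was not matched in these counts. In SETα overexpression Tigar alone had a peak, for 1 target in at least 1 library (5.23%), in both (1.93%) and with overlap (1.64%). In SETβ overexpression 5 targets had a peak, all in library 2 (5.18%), with 0 in both (1.16%) and 0 overlapping (0.941%). Over all 8 libraries 29 of the 30 targets had some peak, where 60.4% of all genes did. The exception was Fas, the death receptor of the extrinsic apoptosis pathway (chr19:34290647-34327775).

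**Figure D3:**
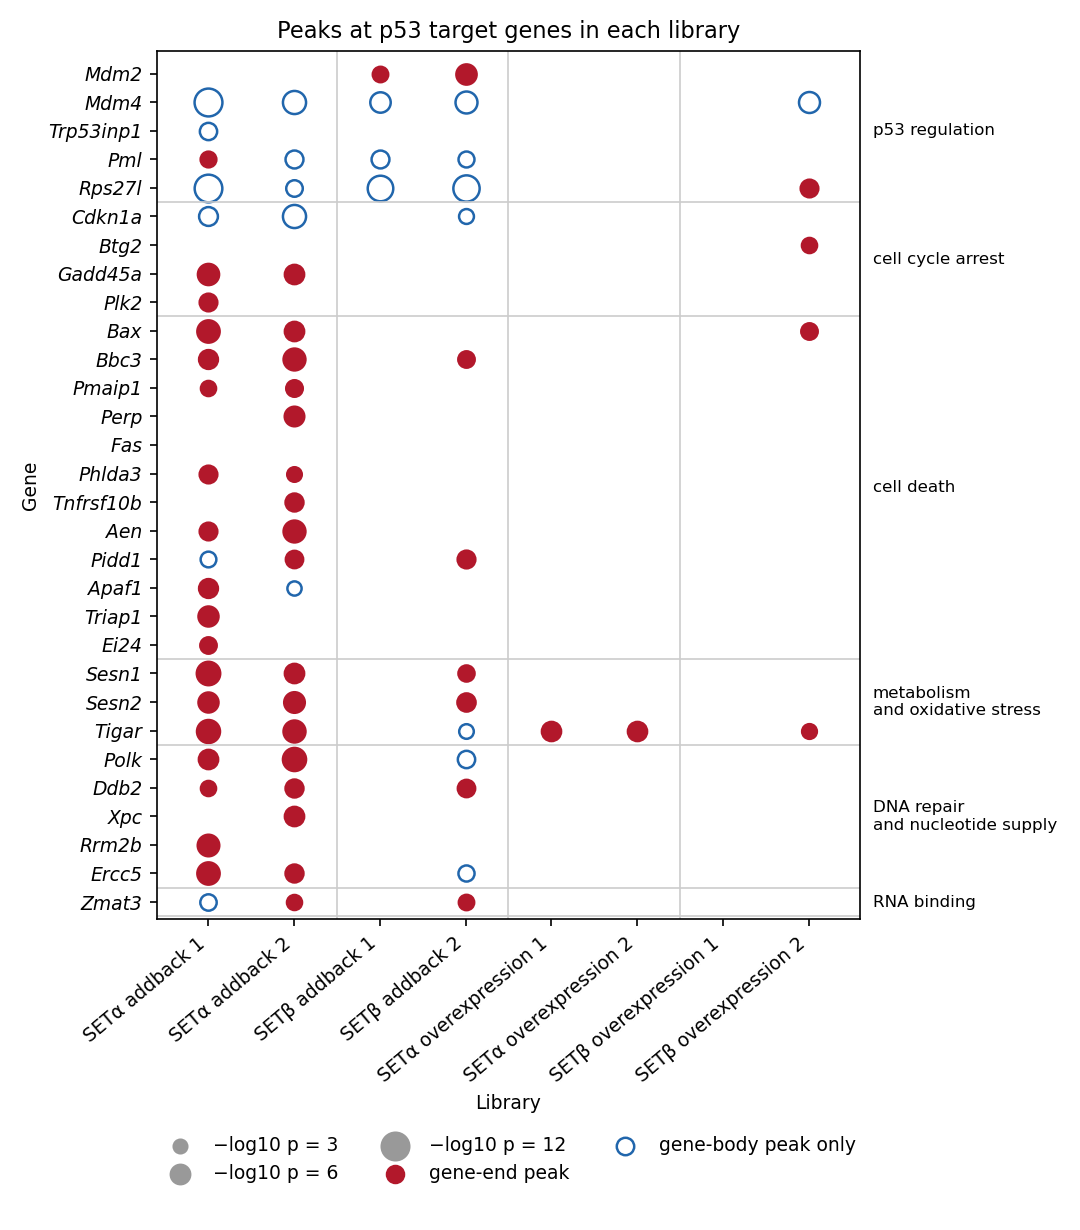
Peaks at each of the 30 p53 target genes (rows, grouped by role) in each of 8 libraries (columns), with filled circles for a gene-end peak, open circles for a gene-body peak only, and circle area growing with the −log10 p of the best peak shown. The SETα addback columns are filled for most genes, Mdm4, Pml and Rps27l carry a peak in all 4 addback columns, and SETβ overexpression 1 is empty.

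Start sites gave a second view of the same lists, chosen after the peaks had been seen, because several targets have an internal start that lies outside both gene-end windows. RefSeq start sites were at hand for 22 of the 30 targets. Within 1 kb of any of them, 17 of 22 had a peak in SETα addback 1, against 34.8% of all genes with such an entry, and 12 of 22 in SETα addback 2, against 32.8%. SETβ addback 1 had 3 of 22, against 8.96%, and SETβ addback 2 had 8 of 22, against 18.9%. The overexpression lists had 1 (0.82%), 1 (1.64%), 0 (0.303%) and 3 (1.76%). Both SETα addback libraries had a start-site peak at 10 of 22, against 22.6%.

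By this count 2 targets, Mdm4 and Rps27l, had a start-site peak in all 4 addback libraries, where 5.39% of genes with an entry did. The count is small and says nothing of a role. MDM4 binds and inhibits p53, and the ribosomal protein paralog encoded by Rps27l is known to take part in MDM2-dependent control of p53. At a −log10 q of at least 5 a start-site peak was held by Mdm4 and Rps27l in SETα addback 1 (3.89% of genes), by none in SETα addback 2 (4.7%), and by Rps27l in SETβ addback 1 (2.81%) and SETβ addback 2 (2.68%).

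The 250 bases before these internal start sites are shown because both starts had a peak within 1 kb in every addback library, and promoters of 4 further genes follow for contrast. At Rps27l the summits lay at or beside the printed stretch, and at Mdm4 most lay outside it, as given further on. Sesn1 had peaks in both SETα addback libraries and SETβ addback 2, Mdm2 in the SETβ addback libraries alone, Cdkn1a has a CpG-poor upstream and a CpG-rich internal start, and Fas had no peak. Sequences are RefSeq GRCm38.p6, written 5′ to 3′ on the strand of the gene, with CpG dinucleotides in capitals. They cover chr9:66945836-66946085 for Rps27l (plus strand), chr1:133025417-133025666 for Mdm4 (minus), chr10:41810324-41810573 for Sesn1 (plus), chr10:117710759-117711008 for Mdm2 (minus), chr17:29090729-29090978 and chr17:29093519-29093768 for the upstream and internal start of Cdkn1a (plus), and chr19:34290409-34290658 for Fas (plus).
Rps27l internal start: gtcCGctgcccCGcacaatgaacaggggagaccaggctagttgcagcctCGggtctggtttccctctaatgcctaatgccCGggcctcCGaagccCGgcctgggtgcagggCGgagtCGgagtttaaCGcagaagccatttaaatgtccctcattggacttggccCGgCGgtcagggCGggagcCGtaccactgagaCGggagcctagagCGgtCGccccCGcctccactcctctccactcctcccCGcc
Mdm4 internal start: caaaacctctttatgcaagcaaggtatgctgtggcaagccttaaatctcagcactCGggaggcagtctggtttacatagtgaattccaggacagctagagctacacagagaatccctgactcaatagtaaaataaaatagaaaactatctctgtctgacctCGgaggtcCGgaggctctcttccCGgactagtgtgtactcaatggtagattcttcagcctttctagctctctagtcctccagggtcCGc
Sesn1 upstream start: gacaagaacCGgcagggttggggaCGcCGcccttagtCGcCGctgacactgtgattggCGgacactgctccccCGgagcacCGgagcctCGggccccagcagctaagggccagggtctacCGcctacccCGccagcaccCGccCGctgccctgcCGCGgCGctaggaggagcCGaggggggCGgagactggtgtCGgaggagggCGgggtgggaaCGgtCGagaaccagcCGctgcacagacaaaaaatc
Mdm2: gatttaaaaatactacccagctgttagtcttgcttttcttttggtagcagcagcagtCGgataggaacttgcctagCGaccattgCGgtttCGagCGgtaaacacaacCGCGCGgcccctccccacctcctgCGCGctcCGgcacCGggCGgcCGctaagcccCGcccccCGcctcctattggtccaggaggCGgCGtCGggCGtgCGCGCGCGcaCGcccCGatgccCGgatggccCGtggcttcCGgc
Cdkn1a upstream start: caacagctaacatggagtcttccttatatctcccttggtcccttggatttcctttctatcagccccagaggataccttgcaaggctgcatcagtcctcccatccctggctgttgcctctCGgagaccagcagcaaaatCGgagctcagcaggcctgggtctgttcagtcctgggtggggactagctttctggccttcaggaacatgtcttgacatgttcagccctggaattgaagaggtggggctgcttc
Cdkn1a internal start: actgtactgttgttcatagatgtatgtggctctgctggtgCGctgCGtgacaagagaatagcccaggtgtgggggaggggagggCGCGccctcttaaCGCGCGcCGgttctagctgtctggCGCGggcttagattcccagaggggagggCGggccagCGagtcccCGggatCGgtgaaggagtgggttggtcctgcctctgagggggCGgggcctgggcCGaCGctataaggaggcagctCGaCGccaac
Fas: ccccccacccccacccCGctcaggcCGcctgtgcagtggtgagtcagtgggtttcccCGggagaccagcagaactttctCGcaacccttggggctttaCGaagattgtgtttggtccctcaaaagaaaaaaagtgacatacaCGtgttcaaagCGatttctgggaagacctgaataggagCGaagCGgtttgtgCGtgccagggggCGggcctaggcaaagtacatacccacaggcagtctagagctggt

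CpG content differed widely among these stretches, with 18 CpG before the Rps27l start, 5 before Mdm4, 23 before Sesn1, 29 before Mdm2, 2 and 19 before the Cdkn1a starts and 11 before Fas. The Mdm4 stretch shows that a peak in all 4 addback libraries was also called within 1 kb of a CpG-poor start. Over 300 bases around each start (250 before to 50 after), the 30 RefSeq starts of the targets had a median of 23.5 CpG, and the 18831 starts of all genes 12.0. The 24 target starts with an addback peak had a median of 24.0 and the 6 without one a median of 9.0.

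Since target promoters were richer in CpG than most, start-site peaks were also counted among genes of like CpG content. Of the 18 targets whose richest start held more than 14.0 CpG, the median of all genes, 14 had a peak in SETα addback 1, against 58.1% of all genes of that class. The numbers were 10 of 18 against 55.7% in SETα addback 2, 2 of 18 against 15.5% in SETβ addback 1 and 7 of 18 against 32.1% in SETβ addback 2. Beside genes of the same class the targets thus stood above the background in 1 SETα addback library and near it in the other. Of the 4 targets at or below the median, 3 had a peak in SETα addback 1 (12.4% of all such genes), 2 in SETα addback 2 (10.8%), 1 in SETβ addback 1 (2.67%) and 1 in SETβ addback 2 (6.22%), which is too few genes to set against a share.

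**Figure D4:**
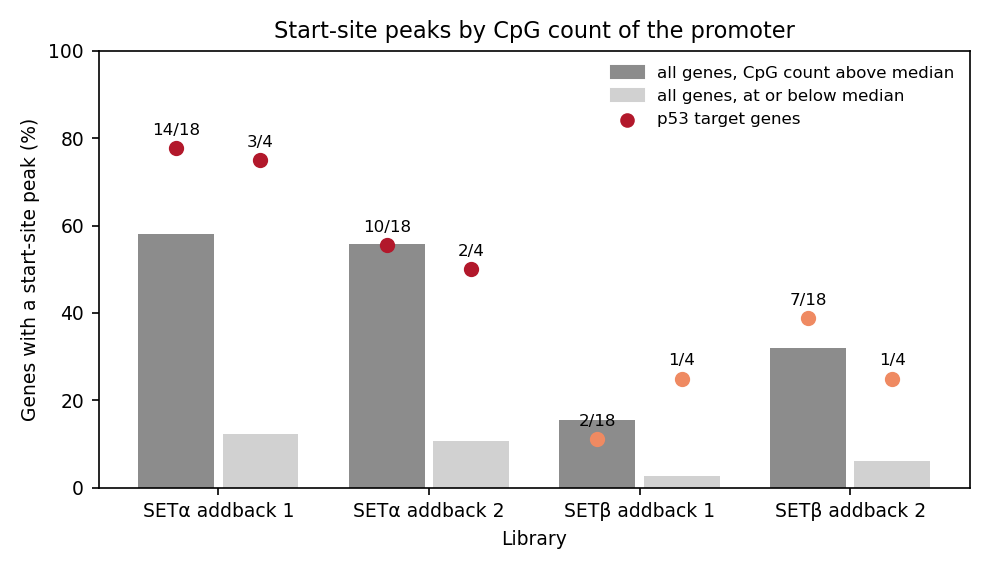
Share of genes with a start-site peak (percent, vertical axis) in the 4 addback libraries, for genes with more than 14.0 CpG at their richest start site and for the others, with p53 targets beside all genes. Among CpG-rich genes 10 of 18 targets had a peak in SETα addback 2, near the 55.7% of all such genes.

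Motifs in the 300-base promoters were described by letters alone, on both strands. GGGCGG was present at 23 of 30 target starts and in 45.6% of all promoters, CCAAT at 12 (38.1%), CCGGAAG at 4 (11.4%) and CACGTG at 4 (7.67%). TGACGTCA was present at 2 (2.12%), and TATAAA at none (12.7%). The p53 half-site was present at 11 of 30 target starts, of 10 genes, and in 7.31% of all promoters. A half-site is one decamer of the pair that p53 binds, and the genes were selected as p53 targets, so its share is a property of the list.

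The half-sites were set against the tagged SET peaks, with no share over all promoters computed. The 2 half-sites of Rps27l were covered in SETα addback 1, SETα addback 2 and SETβ addback 1, and that of Ei24 in SETα addback 1. The half-sites of Aen, Bax, Cdkn1a, Gadd45a, Mdm2, Pml, Polk and Sesn1 in these windows were under no peak. The 30-base stretches that follow, with the half-site in capitals, contrast the covered sites of Rps27l with the uncovered ones of Mdm2 and of the upstream start of Cdkn1a. They lie at chr9:66946193-66946222 and chr9:66946296-66946325 (plus strand), chr10:117710925-117710954 (minus), and chr17:29090896-29090925 and chr17:29090918-29090947 (plus).
Rps27l first half-site: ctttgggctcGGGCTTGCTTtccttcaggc
Rps27l second half-site: gggcttgttgAGACTTGTCCgggcgacacg
Mdm2 half-site: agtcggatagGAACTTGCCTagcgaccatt
Cdkn1a first half-site: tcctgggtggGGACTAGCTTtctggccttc
Cdkn1a second half-site: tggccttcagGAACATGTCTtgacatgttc

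Summits of start-site peaks lay on both sides of the starts. In SETα addback 1 the 27 start-site peaks at targets had summits from -944 to 952 bp, with a median of -153.0 bp (negative is upstream). Of these, 11 lay within 250 bp and 22 within 500 bp. In SETα addback 2 the 14 summits ran from -641 to 564 bp with a median of 171.5 bp, and 7 lay within 250 bp and 11 within 500 bp. The SETα addback medians lay on opposite sides of the start, with 18 of 27 summits upstream in library 1 and 3 of 14 in library 2. In SETβ addback 2 the 9 summits ran from -462 to 962 bp with a median of 240.0 bp.

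**Figure D5:**
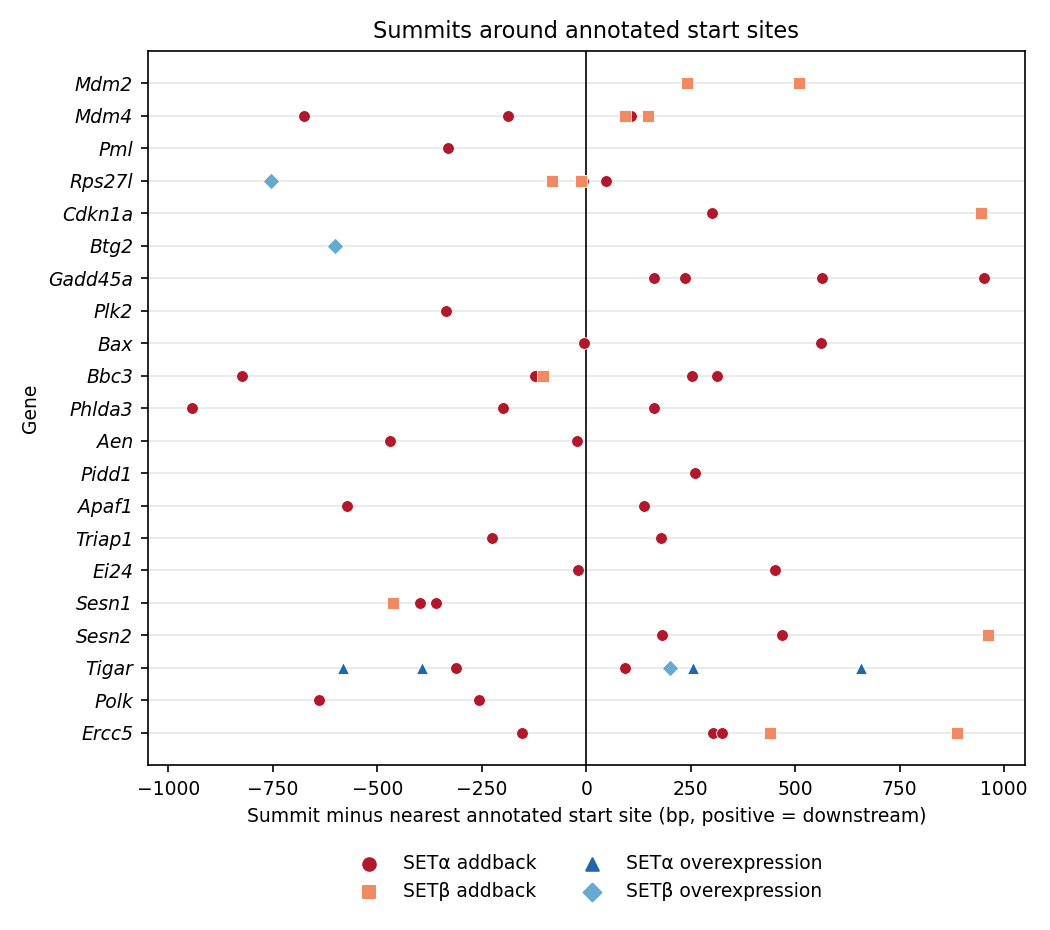
Distance from the nearest RefSeq start site to the summit of each start-site peak at a p53 target (bp, horizontal axis, negative is upstream). Genes are rows, and colours and symbols give the group, so the libraries of a group are not told apart. Summits lie on both sides of the start, from -944 to 952 bp in SETα addback.

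Of the 5 regulators of p53, 1 had a gene-end peak in at least 1 SETα addback library (44.1% of all genes), 0 in both (22.0%) and 1 in a SETβ addback library (20.9%). Other addback peaks of this class lay inside the genes. Those of Rps27l, and the strongest of Mdm4 in each addback library, lay near internal starts. Rps27l spans chr9:66944624-66949522 on the plus strand, with RefSeq starts at 66946086 and 66946413. The peak at the first of these had a fold of 5.48 (rank 651 of 22176) in SETα addback 1, 3.25 (rank 11869 of 15701) in SETα addback 2, 4.77 (rank 489 of 2518) in SETβ addback 1 and 5.09 (rank 443 of 9768) in SETβ addback 2. Its summits lay at -7, 47, -13 and -82 bp. The same place was thus called in every addback library, high in 3 of them and in the lower part of the SETα addback 2 list. No Rps27l peak was called in 3 overexpression libraries, and SETβ overexpression 2 had a weaker one with its summit at -755 bp (fold 3.15, rank 764 of 2869).

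Rps27l was also the one target in a list of peaks that passed the authors' comparison of replicates by irreproducible discovery rate (IDR). Of the 4 IDR lists, with 530, 485, 127 and 101 peaks, that of SETβ addback held it at rank 395 with a −log10 p of 10.02. It counted as a gene-body peak, for 1 of 30 targets against 0.244% of all genes, and no target had one in the other IDR lists, of SETα addback (0.26%) and of the overexpression of SETα (0.0936%) and SETβ (0.0468%). Gene-end peaks of the IDR lists fell on 0 of 30 targets in each group, against 2.77%, 2.62%, 0.0676% and 0.026% of all genes.

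Mdm4 spans chr1:132986105-133030587 on the minus strand, with starts at 133030587 and 133025416, and all of its addback peaks counted as gene-body peaks. The strongest near the internal start had a fold of 5.37 (rank 625 of 22176) in SETα addback 1, 4.88 (rank 1121 of 15701) in SETα addback 2, 3.22 (rank 812 of 2518) in SETβ addback 1 and 3.73 (rank 711 of 9768) in SETβ addback 2. Their summits lay at -676, 107, 93 and 147 bp, and a second peak in SETα addback 1 lay at -187 bp with a fold of 3.49. The last 3 libraries thus placed the peak just inside the internal transcript, while the strongest one of SETα addback 1 lay upstream of it. A pseudogene, Gm29257, has an end between 221 and 555 bp from these summits. Other Mdm4 addback peaks lay further inside the gene. Their summits were 10950 and 6648 bp from the internal start in SETα addback 1 (fold 3.24 and 2.73). They were 5724 bp from it in SETα addback 2 (fold 3.17) and 3502 bp in SETβ addback 2 (fold 2.67). In overexpressing cells the single Mdm4 peak was in SETβ overexpression 2, at 133028007 between both starts, with a fold of 4.01 (rank 164 of 2869).

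Mdm2, whose product is the ubiquitin ligase that degrades p53, was described further because its pattern stood out after the values were seen. It spans chr10:117688875-117710758 on the minus strand and had peaks in SETβ addback alone. They had a fold of 2.51 (rank 2258 of 2518, summit at 508 bp) in SETβ addback 1 and 3.68 (rank 1022 of 9768, summit at 240 bp) in SETβ addback 2. The first was among the weakest of its list, with a −log10 q of 0.09, so that the pattern rests on 1 well-ranked peak. Pml, which encodes the scaffold of nuclear bodies that recruit p53, had a gene-end peak in SETα addback 1 (fold 2.8) and gene-body peaks in the other 3 addback libraries. Trp53inp1, a stress-induced p53 cofactor, had 1 gene-body peak, in SETα addback 1 (fold 3.04).

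Among the arrest genes, Cdkn1a encodes the kinase inhibitor p21 and is the classical p53 target. It spans chr17:29090979-29100722 and was also described further after its values were seen. No library had a peak at its upstream start. At the internal start, 29093769, SETα addback 2 had a peak with the summit at 300 bp (fold 4.88, rank 1204 of 15701) and SETβ addback 2 a weaker one at 944 bp (fold 2.59, rank 6983 of 9768). Further inside the gene SETα addback 2 had a second peak, with the summit at 1650 bp (fold 4.23, rank 2659 of 15701), and SETα addback 1 had its single peak at 1944 bp (fold 3.49, rank 5283 of 22176). These last 2 peaks, at chr17:29095245-29095523 and chr17:29095550-29095845, lay side by side without overlapping. SETβ addback 1 had no Cdkn1a peak.

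Gadd45a, a stress sensor that slows the cycle and aids repair, had gene-end peaks in both SETα addback libraries, with a best fold of 3.98 and 3.9. Plk2, a kinase of the p53 response, had 1 in SETα addback 1 (fold 3.24). Btg2, an antiproliferative cofactor of mRNA decay (chr1:134074865-134079155), had no addback peak. Its single peak was in SETβ overexpression 2, with the summit at -602 bp, a fold of 2.52, a rank of 2000 of 2869 and a −log10 q of 0.0. Of the 4 arrest genes, 1 had a gene-end peak in both SETα addback libraries (22.0% of all genes) and none in a SETβ addback library (20.9%).

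Most of the 12 cell death genes had a gene-end peak in SETα addback. A gene-end peak was present for 11 of them in at least 1 SETα addback library, where 44.1% of all genes had one. For 5 it was present in both, against 22.0% (Phlda3, Pmaip1, Bbc3, Bax and Aen), and for 2 in a SETβ addback library, against 20.9% (Bbc3 and Pidd1). Bbc3 encodes PUMA, a BH3-only activator of apoptosis, and spans chr7:16308398-16318334 with 3 start sites. Its best gene-end peak had a fold of 3.49 (rank 6177 of 22176, summit at -124 bp) in SETα addback 1, 4.55 (rank 1951 of 15701, 252 bp) in SETα addback 2 and 2.89 (rank 4654 of 9768, -103 bp) in SETβ addback 2. SETβ addback 1 and the 4 overexpression libraries had no peak there. All 3 peaks lay at the most upstream start.

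Bax, the pore-forming effector of mitochondrial apoptosis (chr7:45461695-45466903, minus strand), had its strongest peaks at the far end and not at the start. The best had a fold of 4.23 (rank 1716 of 22176) in SETα addback 1 and 3.9 (rank 5129 of 15701) in SETα addback 2, with summits 4907 and 4796 bp inside the gene from its start. SETβ overexpression 2 had a far-end peak with a fold of 2.98 (rank 1232 of 2869), and the SETβ addback and other overexpression libraries had none. An end of Ftl1, which encodes ferritin light chain, lay 937 bp from 1 of the far-end summits in SETα addback 1. At the start of Bax itself SETα addback 2 had peaks with a fold of 3.25 and 2.51.

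The remaining death genes had peaks of similar height. Phlda3, an inhibitor of AKT signalling, had a best fold of 3.24 and 2.76 in SETα addback 1 and 2, and Aen, an exonuclease of apoptotic DNA breakdown, 3.24 and 4.55. The second of these Aen peaks lay at the far end of the gene. Pmaip1, which encodes the BH3-only protein NOXA, had 2.74 and 3.25, in the lower part of both lists. Perp, a membrane protein of desmosomes and apoptosis, had peaks in SETα addback 2 with folds of 3.86 and 3.38, and Tnfrsf10b, a TRAIL receptor, had 1 there with 3.58.

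Apaf1, the apoptosome scaffold, Triap1, an inhibitor of apoptosis in mitochondria, and Ei24, a membrane protein of the endoplasmic reticulum, had gene-end peaks in SETα addback 1 alone, with a best fold of 3.49, 3.73 and 2.99. Pidd1, the core of a caspase-2-activating complex, had gene-end peaks in SETα addback 2 (fold 3.38) and SETβ addback 2 (fold 3.15). Their summits lay at -3392 and -4388 bp from its RefSeq start, and 234 and 762 bp from an end of Rplp2, a ribosomal protein gene. Both gene-end peaks thus lay nearer to Rplp2 than to the RefSeq start of Pidd1, while a gene-body peak in SETα addback 1 (fold 2.8) had its summit at 259 bp from that start.

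All 3 targets of metabolism and oxidative stress had a gene-end peak in both SETα addback libraries, where 22.0% of all genes did. Sesn1 and Sesn2 encode sestrins, which restrain mTORC1 and limit oxidative damage. At Sesn1 (chr10:41810574-41908436) the gene-end peak had a fold of 4.48 (rank 1152 of 22176) in SETα addback 1, 3.9 (rank 3874 of 15701) in SETα addback 2 and 2.91 (rank 4837 of 9768) in SETβ addback 2, with summits at -397, -360 and -462 bp. The 3 summits thus lay close together, upstream of the first start, and no peak was called at the second start, 41887439. The same summits lay between 244 and 346 bp from an end of Cep57l1, a neighbouring gene, so that they cannot be given to either gene. SETβ addback 1 and the overexpression libraries had no Sesn1 peak.

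At Sesn2 (chr4:132492804-132510456, minus strand) the gene-end peak had a fold of 3.73 (rank 3576 of 22176) in SETα addback 1, 4.23 (rank 2953 of 15701) in SETα addback 2 and 3.28 (rank 2531 of 9768) in SETβ addback 2. Summits lay at 467, 181 and 962 bp, all inside the gene. Both SETα addback libraries also had 2 gene-body peaks, and the remaining 5 libraries had no Sesn2 peak.

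Tigar, a phosphatase that lowers glycolytic flux (chr6:127085116-127109552, minus strand), was the target with peaks in the most libraries, 6 of 8. Its best gene-end peak had a fold of 3.72 (rank 1343 of 22176) in SETα addback 1 and 3.98 (rank 1537 of 15701) in SETα addback 2. SETβ addback 1 had none, and SETβ addback 2 had a gene-body peak with a fold of 2.39 (rank 8413 of 9768). In overexpressing cells the gene-end peak had a fold of 3.3 (rank 479 of 4807) and 3.3 (rank 1251 of 7675) in SETα overexpression, none in SETβ overexpression 1, and 2.62 (rank 2104 of 2869) in SETβ overexpression 2. SETα overexpression called 8 and 16 peaks in this one gene, and SETα addback 8 and 5. Tigar lies in the chromosome 6 segment that held most SETα overexpression peaks, and without that segment no target had a gene-end peak in either SETα overexpression library.

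The 5 genes of DNA repair and nucleotide supply all had a gene-end peak in at least 1 SETα addback library (44.1% of all genes), 3 of them in both (22.0%), and 1 in a SETβ addback library (20.9%). Ddb2, the damage sensor of nucleotide excision repair (chr2:91211545-91237132), had a fold of 2.74 (rank 17700 of 22176) in SETα addback 1, 3.58 (rank 7354 of 15701) in SETα addback 2 and 3.15 (rank 3468 of 9768) in SETβ addback 2, and no peak in the other 5 libraries. These are middle and low ranks, and an end of the noncoding gene A330069E16Rik lay between 45 and 825 bp from the summits. Polk, a translesion polymerase, had a fold of 3.5 and 4.88 in SETα addback 1 and 2, with an end of Cert1 126 and 511 bp from the summits. Ercc5, an excision nuclease, had a best fold of 4.23 and 3.58 there. SETβ addback 2 had gene-body peaks at Polk (fold 3.15) and at Ercc5 (best fold 2.91, summit at 439 bp from the start).

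Xpc, which recognises bulky DNA lesions, had a gene-end peak in SETα addback 2 alone (fold 3.9, 211 bp from an end of Lsm3), and Rrm2b, a subunit of ribonucleotide reductase, in SETα addback 1 alone (fold 3.73). Zmat3, an RNA-binding protein that regulates splicing, had gene-end peaks in SETα addback 2 (fold 2.72) and SETβ addback 2 (fold 2.49), both in the lower part of their lists. Neighbours with an end within 1 kb of a summit were also present for Apaf1 (Ikbip), Triap1 (Gatc), and, as noncoding genes, for Gadd45a, Aen, Tnfrsf10b, Rrm2b and Zmat3. At these genes a peak cannot be told apart from one of the neighbour.

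Inside the targets, gene-body peaks without a gene-end peak were present at 6 of 30 in SETα addback 1 (12.2% of all genes), 5 in SETα addback 2 (9.19%), 3 in SETβ addback 1 (2.27%) and 7 in SETβ addback 2 (9.9%). SETα overexpression 1 (1.53%), SETα overexpression 2 (2.76%) and SETβ overexpression 1 (1.27%) had 0, and SETβ overexpression 2 had 1, Mdm4 (2.88%). The addback shares include the internal starts of Mdm4, Rps27l and Cdkn1a described above. Gene length did not set the targets apart, with a median of 17796 bp against 17401 bp for all genes.

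Other genes of the pathway were counted from 2 lists written from textbook knowledge, one of upstream regulators and cofactors of p53 and one of other reported targets. Of 27 upstream genes and cofactors on the chromosomes analysed, 18, 17, 5 and 6 had a gene-end peak in SETα addback 1 and 2 and SETβ addback 1 and 2, and of 30 other targets 16, 17, 4 and 11. The shares of all genes in these libraries were 34.3%, 31.8%, 8.4% and 18.4%. In the overexpression libraries, in the same order, the counts were 0, 1, 0 and 4 of the first list and 1, 1, 0 and 1 of the second, against 0.983%, 1.9%, 0.338% and 1.85% of all genes. All 4 addback libraries had one at 2 of the 27 and 3 of the 30, where 5.14% of all genes and none of the 30 targets described here did. Counts in both SETα addback libraries were thus above the share of all genes in all 3 lists of the pathway. In SETβ addback 1 both other lists were above it as well, on 5 upstream genes (18.5%) and 4 other targets (13.3%). In SETβ addback 2 the upstream genes were near it, at 22.2%, as the 30 targets were. The other targets were above it there, at 36.7%. CpG content was not matched in these gene-end counts. Differences between the lists were not tested.

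Among the pathway genes outside the list, Bid had gene-end peaks in the most libraries, and Ep300, Rpl5 and Chek2, a DNA damage checkpoint kinase, followed with 5 each. Chek2 was added after the values were seen. Bid, a BH3-only protein, had them in 7 of 8 libraries and also lies in the chromosome 6 segment (chr6:120893119-120917062). Ep300, the acetyltransferase that acts on histones and p53, had them in the 4 addback libraries, with ranks of 977, 2582, 2262 and 8231, and in SETβ overexpression 2. Rpl5, a ribosomal protein that can inhibit MDM2, had them in the same 5 libraries, with ranks of 6003, 983, 2483 and 8724 in addback. Of the other targets, 2 of 30 had a gene-end peak in each addback IDR list, against 2.77% and 2.62% of all genes for SETα and SETβ, where the 30 targets described here had none. Bid and Gtse1 were in the SETα list and Gtse1 and Sesn3 in the SETβ list. Of the upstream genes, 0 of 27 had a gene-end peak in each addback IDR list. In the SETα overexpression IDR list 1 of the 30 other targets had one, Bid, against 0.0676% of all genes. Gtse1, a mitotic regulator that restrains p53, had gene-end peaks in the 4 addback libraries with ranks of 161, 158, 122 and 276, higher than those of Ep300 and Rpl5. Sesn3, which encodes another sestrin, had ranks of 3847, 452, 361 and 496. Gtse1 and Sesn3 were named after their values were seen.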

How the data were processed

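Per the submitters' processing notes, the authors used Bowtie2, MACS2 and deepTools with the builds GRCm38 and mm10, named without versions, roles or order. Control libraries and excluded regions are not given in the sources used here. The authors deposited 1 peak list for each of 8 libraries, with a score, a fold (ratio) over the local background, a −log10 p and a −log10 q per peak. For each group they deposited a list of peaks that passed IDR at 0.05, in which the score is a scaled IDR, beside a −log10 p of the merged peak.

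Peaks were set against RefSeq genes and promoters of GRCm38.p6 with Python 3.11.15, numpy 2.4.6 and pandas 2.3.3. The code for overlaps was tested on simulated peaks. The 19 chromosomes with peaks were used. Chromosomes 8 and 11 were not analysed here, and 3 mitochondrial peaks were left out. Ranks follow −log10 p and then fold. Results are counts per library, with the mean and SD over 2 libraries, beside the share of all protein-coding genes. No test was made, because peak lists hold no counts to test and the lists carry no independent evidence: their rules use no measured value, but the target and pathway genes were chosen with earlier results of these data known. Values in every library are given for targets with a gene-end peak in at least 3 of 4 addback libraries, in an IDR list or with any overexpression peak, and the others are given by their best values. Neighbours are genes with an end within 1 kb of a summit. Alternatives were other windows, thresholds on q, equal numbers of peaks, summits in place of overlaps, and leaving out each library. Start sites and the removal of the chromosome 6 segment were added after the data were seen.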

Additional observations from a re-analysis of the deposited data

How the results depend on the processing

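The addback minus overexpression and SETα minus SETβ addback differences in gene-end counts kept their direction or fell to 0.0 under the alternatives run. The order of other group means changed. With equal numbers of peaks SETβ addback (0.5) fell below both overexpression groups (1.0 each), and without SETβ addback 2 it was 1.0 against 2.0 for SETβ overexpression. SETβ overexpression had more gene-end targets than SETα overexpression (2.0 against 1.0), but fewer at a −log10 q of at least 1.3 (0.0 against 0.5). The addback gene-body means were 5.5 for SETα and 5.0 for SETβ, and the latter was 7.0 without SETβ addback 1. Results in this section are mean numbers of targets per library unless said otherwise. With a window of 0.5 kb the SETβ addback gene-end mean was 2.0 and the SETβ overexpression gene-body mean 1.0. With 2.5 kb the overexpression gene-end means were 2.0 for SETα and 3.5 for SETβ, 1 target had a gene-end peak in all 4 addback libraries, and the gene-body means were 3.0 for both addback groups and 0.0 for SETβ overexpression. With a −log10 q of at least 1.3 the gene-end means were 0.5 for SETβ addback and 0.5 and 0.0 for the overexpression of SETα and SETβ, and the gene-body means 3.0 and 2.0 in SETα and SETβ addback. With a −log10 q of at least 5 all 4 gene-end means and both differences were 0.0, and the gene-body means were 1.0, 1.0 and, in SETβ overexpression, 0.0. With equal numbers of peaks the gene-end means were 1.5 in SETα addback, 0.5 in SETβ addback and 1.0 in SETβ overexpression, the addback minus overexpression difference 0.0 and the SETα minus SETβ difference 1.0, and both addback gene-body means 2.0. Without the chromosome 6 segment the SETα overexpression mean was 0.0. With start sites the SETα minus SETβ difference was 9.0, and 2 targets had a peak in all 4 addback libraries.

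Leaving out each library in turn, the SETβ addback gene-end mean ran from 1.0 to 7.0 and its gene-body mean from 3.0 to 7.0. The SETβ overexpression means ran from 0.0 to 4.0 and from 0.0 to 1.0. The addback minus overexpression difference ran from 6.83 to 12.5. Without SETβ addback 1 it was 12.5, and 4 targets had a gene-end peak in all remaining addback libraries, so that the count of 0 rests on that short list. No paired analysis was possible because the results come from no test, by choice of the design, and the replicate numbers were not used to pair libraries. The unknown depth limits what an absent peak means: it says only that none was called.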

Other observations

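A peak beyond the far end of Cdkn1a was called in all 4 overexpression libraries and in no addback library. It was noticed after the values were seen. Of all 19232 protein-coding genes, 5 (0.026%) had a peak between 1 and 2.5 kb outside in that pattern. Of the 1343 peaks of the shortest overexpression list, 345 overlapped a peak in each overexpression list, and 215 of them (16.0% of the list) overlapped none in an addback list, so the pattern itself was common among repeated overexpression peaks. It lay at chr17:29102834-29103477 in SETα overexpression 1, beginning 2112 bp after the end of the gene, outside the windows used for the counts. Its fold was 3.63 (rank 332 of 4807) and 3.42 (rank 1455 of 7675) in SETα overexpression 1 and 2, and 3.37 (rank 213 of 1343) and 3.24 (rank 679 of 2869) in SETβ overexpression 1 and 2. The 4 summits lay between 29102974 and 29103050. Its −log10 q was 1.42, 1.34, 0.75 and 0.43, so that none was strong. Other peaks just outside the windows at Tigar, Bax, Sesn2, Mdm4 and Trp53inp1 were each called in 1 library of a group.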
